A study of Mus musculus with 9 samples.

Results

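The 10 genes of the NF-kB system followed here across time were the 4 subunit genes Nfkb1, Nfkb2, Rela and Relb, the 3 IkB genes Nfkbia, Nfkbib and Nfkbiz, the ubiquitin regulators Tnfaip3 and Birc3, and the adhesion gene Icam1. They were chosen by gene name, with earlier results of these data known. All 10 were present among the 15552 protein-coding genes of the count table. RNA came from MyC-CaP cells, a mouse prostate cancer line derived from a tumor driven by MYC. Every group had been starved for 6 to 12 h without serum or calcium, and recombinant NRG1, which binds the receptor HER3, was then given at 15 ng/mL. Libraries were made at 0, 12 and 24 h, with 3 replicates each, labelled as biological. The study describes plating in triplicate, and whether the replicates were separate experiments was not stated. Libraries kept without NRG1 for 12 or 24 h were not analysed here, so time in the medium and time with NRG1 cannot be told apart. All libraries derive from 1 established cell line.

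NF-kB factors are dimers of Rel family proteins that IkB proteins hold in the cytoplasm until an upstream kinase complex marks the IkB protein for destruction. The freed dimers enter the nucleus and switch on genes for cytokines, adhesion molecules and survival proteins, and with them genes for their own brakes, such as Nfkbia and Tnfaip3, which close a negative feedback loop. In the slower, noncanonical branch, the kinase encoded by Map3k14 triggers processing of the Nfkb2 product, which then pairs with RelB. Because several members are themselves NF-kB target genes, their RNA is widely used as a readout of pathway output.

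Sequence upstream of the start site is shown because several of these genes carry kB elements, the DNA motif read by NF-kB dimers. RefSeq windows of 250 bases before the start (GRCm38.p6) were found for 7 of the 10 members, in 10 windows. Nfkb1, Relb and Nfkbiz had no entry. The kB consensus was searched as GGGRNNYYCC (R is A or G, Y is C or T, N is any base), on both strands with overlaps allowed. It matched 5 windows from 3 members, Nfkb2, Nfkbia and Tnfaip3. It was found in 7.25% of all 32851 windows of that length. Capitals mark 1 consensus match in each line. The window of Nfkbia is shown whole and ends at the base before the annotated start, and the others are 30-base stretches around 1 of their matches.
Nfkbia, chr12:55492648-55492897, minus strand: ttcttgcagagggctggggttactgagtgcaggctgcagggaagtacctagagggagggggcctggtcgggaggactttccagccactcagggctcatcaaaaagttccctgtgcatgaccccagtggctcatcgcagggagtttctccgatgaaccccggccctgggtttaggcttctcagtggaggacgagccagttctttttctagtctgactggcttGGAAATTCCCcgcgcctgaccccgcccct
Nfkb2, window 1, chr19:46304707-46304736, plus strand: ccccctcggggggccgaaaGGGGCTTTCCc
Nfkb2, window 3, chr19:46305695-46305724, plus strand: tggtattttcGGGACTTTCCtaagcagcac
Tnfaip3, window 1, chr10:19015411-19015440, minus strand: gtgactggaatttccatcGGAAATCCCCct
The match of Nfkbia lay 29 to 20 bases before the start, and that shown for Tnfaip3 12 to 3 bases before it, both on the reverse strand. In Nfkb2 the matches shown lay 11 to 2 and 225 to 216 bases before the starts of their windows, on the forward strand. No match was found in the windows of Rela, Nfkbib, Birc3 and Icam1. The window of Icam1 holds tggaaattcc, which this pattern does not allow, so a window without a match may still hold a kB element. In GENCODE, whose transcripts of these genes can start further upstream, exons of the same gene cover 250 and 234 bases of windows 1 and 3 of Nfkb2, 110 of window 1 of Tnfaip3 and none of that of Nfkbia. A match is a string of letters, and binding was not measured.

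Libraries held between 28467089 and 39239760 counts. A total of 11373 genes had enough counts to be tested, and all 10 members were among them, although Birc3 was kept through its 24 h values. The 10 genes together took 0.0494% to 0.0529% of the counts of a library. Mitochondrial genes took at least 1.41% at 0 h, 1.12% to 1.18% at 12 h and 1.21% to 1.36% at 24 h, and their part in the results was not tested. At 12 h, replicate 3 stood apart from the other replicates, with chi-square values per degree of freedom of 9.92 and 10.1 against them and 4.26 between those. At 0 h, replicate 1 did so to a lesser degree, with 7.44 and 6.62 against the others and 4.14 between those. The label of prostate epithelium was held against markers. Hoxb13, a prostate homeobox gene, was at 81.3 to 106 CPM (counts scaled to library size) and the keratin gene Krt8 at 17.3 to 26.2, but the epithelial genes Cdh1 and Epcam had at most 4 and 3 counts in any library. The leukocyte markers summed to 7.94 to 9.12 CPM at 0 h, 11.1 to 13.0 at 12 h and 10.9 to 11.3 at 24 h, nearly all of it Cd14, while Ptprc, which defines leukocytes, had at most 8 counts.

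The question asked of the members was whether their RNA moved after NRG1. Most did not by much. At 12 h, 0 of 10 members passed an edgeR adjusted p of 0.05 against 0 h, while 25.5% of all tested genes did, 13.6% higher and 11.9% lower. Rela and Nfkbiz, 2 of 10, had an unadjusted p under 0.05, beside 36.9% of all tested genes, and DESeq2 also passed 0 of 10, beside 24.5%. At 24 h against 0 h, 1 of 10 passed, Nfkb2, which was higher, against a background of 17.4% (9.67% higher and 7.76% lower). Between 12 and 24 h, 1 of 10 passed, Nfkbiz, which was lower, against 5.03% (1.97% higher and 3.06% lower). No member passed with a change of 1.5-fold or more in any of the 3 comparisons, where 2.29%, 2.27% and 0.29% of tested genes did. At an unadjusted p under 0.05, 4 members were found at 24 h against 0 h and 3 at 24 h against 12 h, beside 30.2% and 20.1% of all tested genes. DESeq2 passed 1 and 2 at an adjusted p of 0.05, beside 17% and 6.04%. Birc3, among the 4 at an unadjusted p under 0.05, was kept for testing only through its 24 h values.

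The intervals show how much change the data leave room for. At 12 h the 95% interval of the fold change stayed within 1.5-fold in either direction in 9 of 10 members, all but Birc3. At 24 h against 0 h it did so in 8, all but Relb and Birc3, and at 24 h against 12 h in 9, all but Birc3. The same count was not made over all tested genes. Their median absolute log2 fold change was 0.11 at 12 h against 0 h, 0.093 at 24 h against 0 h and 0.075 at 24 h against 12 h. The counts of intervals therefore do not show that the members were steadier than other genes. Birc3, Icam1 and Relb, the members with the fewest counts, had the widest intervals. The median log2 fold change of the members was 0.052 at 12 h and 0.053 at 24 h against 0 h, beside -0.0028 and -0.0065 over all tested genes. In a bulk sample, fewer cells that express a gene and less RNA per cell cannot be told apart.

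**Figure D1:**
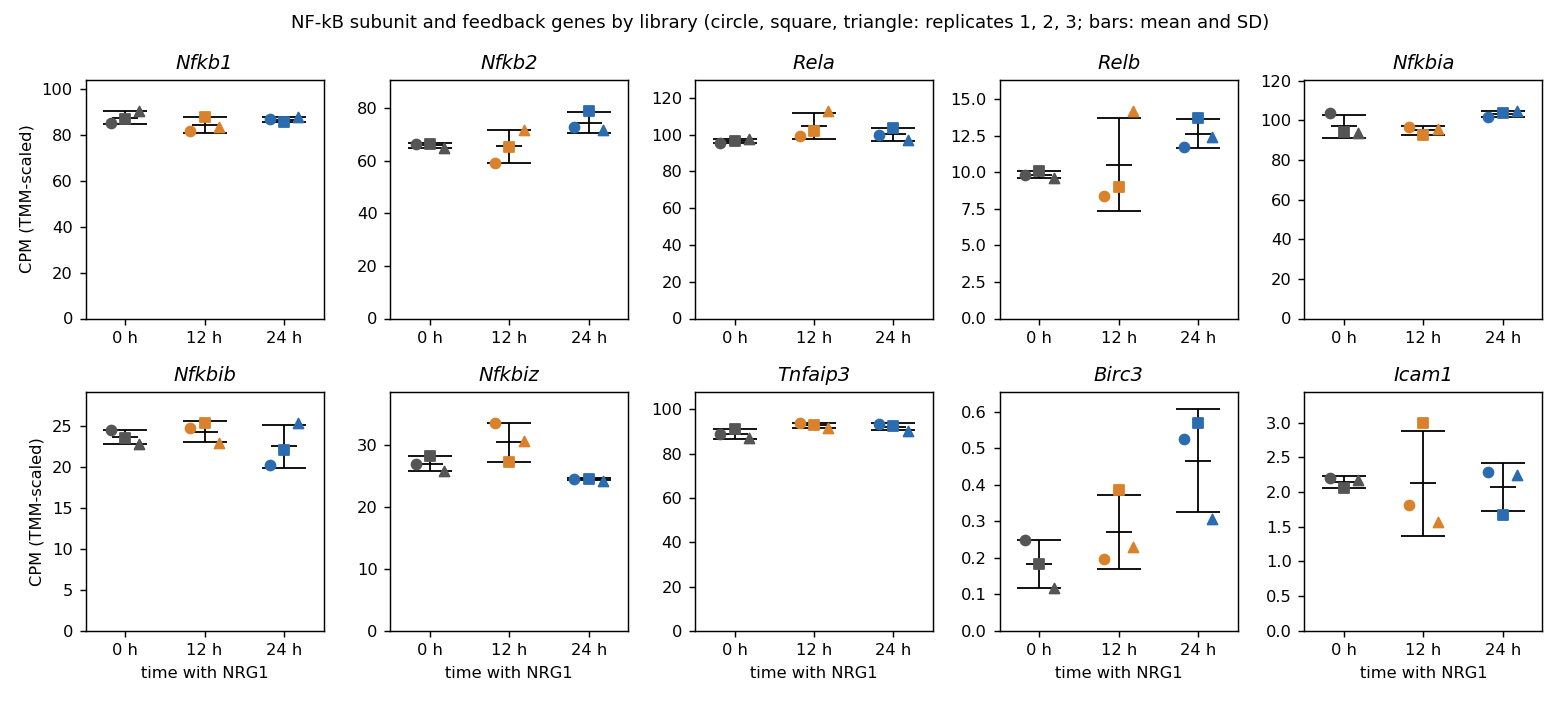
CPM after TMM scaling (vertical axes, each starting at 0) of the 10 genes in each library at 0, 12 and 24 h (horizontal axes), with circles, squares and triangles for replicates 1, 2 and 3 and bars for the mean and SD of 3 libraries. Most genes lie level across time, while Nfkb2 is higher at 24 h than in any 0 h library, Nfkbiz falls to about 24 CPM at 24 h, and replicate 3 at 12 h lies apart in Relb.

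Among the subunits, Nfkb1 and Rela encode the partners of the classical heterodimer. Nfkb1 (ENSMUSG00000028163.17, GRCm38 chromosome 3, 135584655 to 135691547, minus strand) was at 85.1, 86.9 and 90.6 CPM in the 0 h replicates, 81.6, 88.1 and 83.5 at 12 h, and 87.1, 85.5 and 87.7 at 24 h. Every time point overlapped the others. The fold change was 0.964 at 12 h (95% interval 0.907 to 1.02, adjusted p = 0.375 by edgeR) and 0.991 at 24 h (0.933 to 1.05, adjusted p = 0.876 by edgeR). Nfkb1 was therefore the subunit gene with the narrowest bounds, and neither interval reached past 0.907 or 1.05.

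Rela (ENSMUSG00000024927.8, chromosome 19, 5637483 to 5648130, plus strand) carries the transactivation domain of the classical dimer. Its libraries held 95.7, 96.5 and 97.5 CPM at 0 h, 99.3, 102 and 113 at 12 h, and 99.6, 104 and 97.0 at 24 h. All 12 h libraries lay above all 0 h libraries, with replicate 3 highest, and the 24 h libraries overlapped both. The difference at 12 h, a log2 fold change of 0.12 ± 0.047 (SE), did not pass (adjusted p = 0.0761 by edgeR), although without replicate 1 at 12 h it was 0.16 and passed. At 24 h it was 0.052 (adjusted p = 0.501 by edgeR).

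Nfkb2 and Relb encode the subunits of the noncanonical branch, and Nfkb2 was the only member to pass at 24 h against 0 h. Nfkb2 (ENSMUSG00000025225.15, chromosome 19, 46304320 to 46312385, plus strand) was at 66.5, 66.4 and 64.8 CPM at 0 h, 59.2, 65.4 and 71.8 at 12 h, and 72.8, 79.0 and 71.6 at 24 h. All 24 h libraries were above those at 0 h, and the 12 h libraries spread across both. From a mean of 65.9 ± 0.932 CPM, Nfkb2 rose to 74.5 ± 3.99 (SD, n = 3) after 24 h, a fold change of 1.13 (95% interval 1.04 to 1.23) and a log2 fold change of 0.18 ± 0.058 (SE, adjusted p = 0.0471 by edgeR).

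The rise of Nfkb2 was small and close to the threshold. It no longer passed when any 1 of the 6 libraries at 0 or 24 h was left out, with log2 fold changes of 0.18, 0.19 and 0.17 without replicates 1, 2 and 3 at 0 h, and 0.19, 0.14 and 0.21 without replicates 1, 2 and 3 at 24 h. Its direction held in all of them. Genes on the opposite strand, among them Psd, cover 18.1% of its exonic bases, and the strand setting of the counting was not stated. Psd itself averaged 13.0, 12.2 and 14.4 CPM at the 3 times and did not pass at 24 h against 0 h (adjusted p = 0.253 by edgeR). Whether its reads contributed to the counts of Nfkb2 was not tested. Between 12 and 24 h the log2 fold change of Nfkb2 was 0.19 and did not pass (adjusted p = 0.0775 by edgeR), but it passed under DESeq2, without the filter on low counts, and without replicate 3 at 12 h, where it was 0.25.

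Relb (ENSMUSG00000002983.17, chromosome 7, 19606217 to 19629438, minus strand), the partner of the processed Nfkb2 product, was at a lower level. Its libraries held 9.80, 10.1 and 9.58 CPM at 0 h, 8.38, 9.005 and 14.2 at 12 h, and 11.8, 13.7 and 12.4 at 24 h. Values at 24 h were all above those at 0 h, and at 12 h replicate 3 was the highest of all 9 libraries while the others were the lowest. The means of 9.82 ± 0.246 and 12.6 ± 1.00 CPM (SD, n = 3) stood for 0 and 24 h. That fold change of 1.29 (95% interval 1.04 to 1.59) did not pass with all 9 libraries fitted together (log2 0.36 ± 0.143, SE, adjusted p = 0.0915 by edgeR).

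The result for Relb turned on 1 library. Without replicate 3 at 12 h, the 24 h against 0 h difference was 0.37 on the log2 scale and passed. It also passed when only the 0 and 24 h libraries were fitted and without the filter on low counts, and its edgeR or DESeq2 adjusted p ranged from 0.00282 to 0.243 over 15 alternatives. Without the same library, the 12 h against 0 h difference turned from 0.093 to -0.17, and the 24 h against 12 h difference went from 0.27 to 0.54 and passed. At 12 h the direction of Relb was thus not settled.

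Nfkb2 and Relb varied together. Over the 9 libraries their log2 CPM had r = 0.91, given as a description, since the libraries share time points and both genes were high in replicate 3 at 12 h. Relb and Nfkbiz had r = -0.395, and Nfkb1 and Nfkb2 had r = 0.151.

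**Figure D2:**
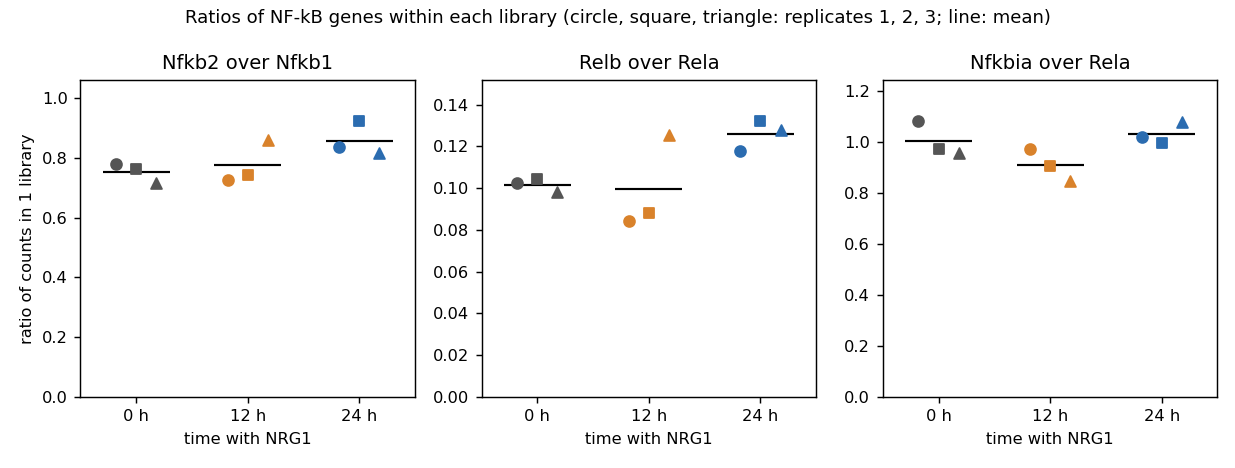
Ratio of the counts of gene pairs within each library (vertical axes, from 0) at 0, 12 and 24 h (horizontal axes), with 1 symbol per replicate and a line at the mean of 3 libraries. The ratio of Nfkb2 to Nfkb1 lies between 0.817 and 0.924 at 24 h, above the 0 h libraries at 0.716 to 0.781, and Relb over Rela lies between 0.118 and 0.132 at 24 h, above 0.0983 to 0.104 at 0 h.

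Ratios within a library, which do not depend on scaling between libraries, put the noncanonical subunits beside the classical ones. Gene length cancels when the same ratio is followed over time. Counts of Nfkb2 over Nfkb1 averaged 0.754 ± 0.0338, 0.776 ± 0.0733 and 0.859 ± 0.0571 at 0, 12 and 24 h (SD, n = 3). The 24 h libraries lay above the 0 h libraries without overlap. Counts of Relb over Rela averaged 0.102 ± 0.00309, 0.0994 ± 0.0228 and 0.126 ± 0.00727. Again the 24 h and 0 h libraries did not overlap, and at 12 h replicate 3 stood at 0.126 while the others were at 0.0844 and 0.0882. These ratios restate the same counts and were not tested.

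Of the 3 IkB genes, Nfkbiz passed between 12 and 24 h, and the others passed in no comparison. Nfkbia (ENSMUSG00000021025.8, chromosome 12, 55489410 to 55492647, minus strand), the canonical inhibitor and an early target of the factor it restrains, was at 104, 94.0 and 93.4 CPM at 0 h, 96.6, 92.5 and 95.6 at 12 h, and 102, 103 and 105 at 24 h. The 24 h libraries were above all 12 h libraries but overlapped replicate 1 at 0 h. The fold change was 0.980 at 12 h (95% interval 0.920 to 1.04, adjusted p = 0.670 by edgeR). It was 1.07 at 24 h against 0 h (1.00 to 1.14, adjusted p = 0.158 by edgeR), and 1.09 at 24 h against 12 h (1.02 to 1.16, adjusted p = 0.115 by edgeR). Without replicate 1 at 0 h the log2 fold change at 24 h went from 0.093 to 0.14 and passed.

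Nfkbib (ENSMUSG00000030595.15, chromosome 7, 28758251 to 28767512, minus strand), a related inhibitor, was at 24.5, 23.6 and 22.9 CPM at 0 h, 24.7, 25.4 and 22.9 at 12 h, and 20.2, 22.04 and 25.4 at 24 h. The ranges overlapped at all times, and the 24 h replicates were the most spread. On the log2 scale it differed from 0 h by 0.043 at 12 h (adjusted p = 0.719 by edgeR) and by -0.062 at 24 h (adjusted p = 0.632 by edgeR). Genes on the opposite strand, Ccer2 and Sirt2, cover 16.4% of its exonic bases, and Sirt2 was lower at 12 h and at 24 h than at 0 h (log2 fold changes -0.20 and -0.16, adjusted p = 0.00487 and 0.0237 by edgeR). Counts of Nfkbib are uncertain to that extent.

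Nfkbiz (ENSMUSG00000035356.17, chromosome 16, 55811375 to 55838899, minus strand) encodes an atypical, nuclear IkB protein that acts on NF-kB already bound to DNA. It had the smallest adjusted p of the 10 members in the test for any difference among the 3 time points (adjusted p = 0.00678 by edgeR). That test was passed by 2 members, Nfkbiz and Nfkb2, and by 27.4% of all tested genes. Nfkbiz was at 26.9, 28.3 and 25.8 CPM at 0 h, 33.5, 27.2 and 30.6 at 12 h, and 24.5, 24.6 and 24.2 at 24 h. At 24 h the libraries were nearly identical and lay below every other library, whereas the 12 h libraries were spread and overlapped those at 0 h.

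Between 12 and 24 h Nfkbiz fell from 30.5 ± 3.14 to 24.4 ± 0.174 CPM (SD, n = 3), a fold change of 0.801 (95% interval 0.725 to 0.886) and a log2 fold change of -0.32 ± 0.068 (SE, adjusted p = 0.0128 by edgeR). Against 0 h, neither the value at 12 h (log2 fold change 0.18, adjusted p = 0.0690 by edgeR) nor that at 24 h (-0.14, adjusted p = 0.171 by edgeR) passed. The 12 h value passed without replicate 2 at 12 h, where it was 0.25. The fall between 12 and 24 h no longer passed without the 12 h replicate 1 (-0.24), nor without the 24 h replicates 1 (-0.32) or 3 (-0.31).

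**Figure D3:**
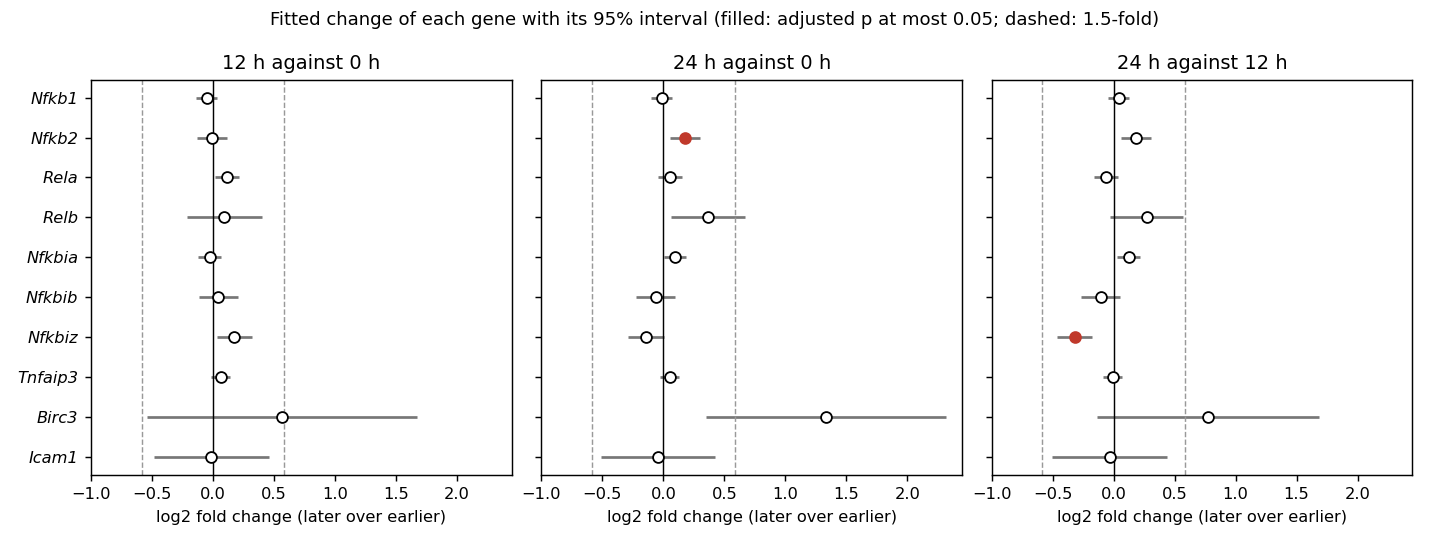
Fitted log2 fold change (horizontal axes, later over earlier time) of the 10 genes in 3 comparisons, with 95% intervals as lines, filled points for an edgeR adjusted p of at most 0.05, and dashed lines at 1.5-fold. Nfkb2 at 24 h against 0 h and Nfkbiz at 24 h against 12 h are filled, and the interval of Birc3 is the widest in each panel.

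Tnfaip3 (ENSMUSG00000019850.11, chromosome 10, 19000910 to 19015657, minus strand), a ubiquitin-editing enzyme that shuts off signaling upstream of the IkB kinase, held its level. It was at 88.7, 91.1 and 86.9 CPM at 0 h, 93.8, 92.8 and 91.7 at 12 h, and 93.6, 92.7 and 90.4 at 24 h. The 12 h libraries all lay above those at 0 h, by a small margin. The fold change was 1.04 at 12 h (95% interval 0.988 to 1.10, adjusted p = 0.254 by edgeR) and 1.04 at 24 h (0.982 to 1.10, adjusted p = 0.372 by edgeR). These are among the tightest intervals of the 10 members.

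Birc3 (ENSMUSG00000032000.17, chromosome 9, 7848699 to 7873186, minus strand), a ubiquitin ligase of TNF receptor complexes and a survival gene, was near the limit of detection. It had 7, 7 and 4 counts at 0 h, 7, 12 and 7 at 12 h, and 16, 19 and 12 at 24 h. The 24 h libraries exceeded the 0 h libraries in CPM (0.306 to 0.568 against 0.116 to 0.248) but not all of those at 12 h. The fold change at 24 h against 0 h was 2.52, with a 95% interval from 1.28 to 4.99 that rests on 47 against 18 counts in all, and it did not pass (log2 1.34 ± 0.465, SE, adjusted p = 0.0579 by edgeR). Without replicate 3 at 24 h it was 1.59 on the log2 scale and passed. Birc3 exceeded the filter's cutoff of 0.30 CPM in 0, 1 and 3 libraries at 0, 12 and 24 h, so it was kept only through the group where it was highest.

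Icam1 (ENSMUSG00000037405.8, chromosome 9, 21015985 to 21028817, plus strand), which encodes a leukocyte adhesion molecule and is a classical NF-kB target, was also low. It was at 2.20, 2.05 and 2.18 CPM at 0 h, 1.82, 2.99 and 1.57 at 12 h, and 2.29, 1.67 and 2.24 at 24 h. Both later time points spread to either side of the 0 h libraries. Its fold change was 0.990 at 12 h (95% interval 0.714 to 1.37, adjusted p = 0.974 by edgeR) and 0.968 at 24 h (0.700 to 1.34, adjusted p = 0.922 by edgeR). At 48 to 93 counts per library, the 3 libraries at 12 h had a coefficient of variation of 35.8%. An antisense gene covers 11.7% of its exonic bases.

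Members whose libraries did not overlap between time points were counted against the same count over all genes. At 12 h against 0 h they were 2 of 10 members, Rela and Tnfaip3, against 38.4% of all tested genes. At 24 h against 0 h they were 4 of 10, Nfkb2, Relb, Nfkbiz and Birc3, against 35.5%, and at 24 h against 12 h 2 of 10, Nfkbia and Nfkbiz, against 25%. Birc3 was kept for testing only through its 24 h values, so its place among the 4 was favoured by the filter.

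Per kilobase of exon, the order of the members was the same at all 3 times. Nfkbia stood first, at 60.2, 58.9 and 64.1 CPM per kb at 0, 12 and 24 h, above 93.6% of all tested genes. Rela followed at 31.4, 34.1 and 32.6, and Nfkb2 at 14.4, 14.3 and 16.2. Next came Tnfaip3 at 12.3, 12.8 and 12.8, Nfkbib at 10.9, 11.2 and 10.4, and Nfkb1 at 7.26, 7.00 and 7.19, which placed Nfkb1 close to the middle of the tested genes, above 51.1% of them. Nfkbiz was at 5.38, 6.07 and 4.87, and Relb at 2.53, 2.71 and 3.25. At the end were Icam1 at 0.492, 0.487 and 0.475 and Birc3 at 0.0365, 0.0539 and 0.0930, above 10.4% and 1.13% of tested genes. Neighbours in this order had separate ranges over the 3 libraries except Nfkb2 and Tnfaip3 at 12 h. The inhibitor gene Nfkbia was thus the most abundant member per length, and RNA of Rela exceeded that of Relb by an order of magnitude.

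The genes most like Nfkbiz over the 9 libraries, by Pearson r of log2 CPM among 8412 genes with a mean of at least 10 CPM, were Anxa4 (r = 0.965), Arrb1 (0.964), Ccdc47 (0.962), Fbxo10 (0.937) and Hnrnpm (0.932). Arrb1, for example, averaged 483, 515 and 451 CPM at the 3 times. This ranking is a description over libraries that share time points.

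Beyond the 10 members, 91 further pathway genes, chosen with earlier results of these data known, were grouped by role. Of these, 86 were in the table and 70 were tested. At 12 h against 0 h, 20 of the 70 passed, 12 higher and 8 lower, and at 24 h against 0 h 11 passed, 10 higher and 1 lower. These shares, 28.6% and 15.7%, are near the backgrounds of 25.5% and 17.4%. Between 12 and 24 h, 8 passed, 5 higher and 3 lower, a share of 11.4% beside 5.03% of all tested genes, and with 1 library left out the count ranged from 2 to 8, with 3 without replicate 1 at 12 h and 2, 4 and 2 without replicates 1, 2 and 3 at 24 h. The comparisons against 0 h share the 0 h libraries, so their values stand side by side and were not combined.

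**Figure D4:**
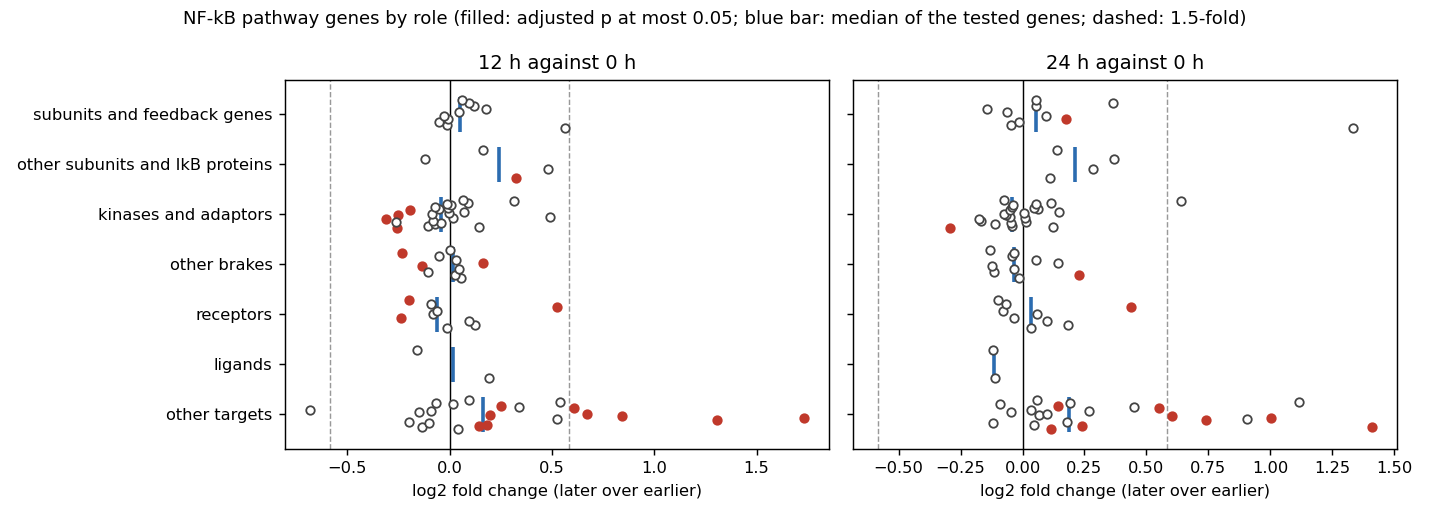
Log2 fold change (horizontal axes, with different ranges in the panels) of the 10 members and 70 other tested NF-kB pathway genes by role (rows) at 12 h and at 24 h against 0 h, with filled points for an edgeR adjusted p of at most 0.05, blue bars for the median of each role and dashed lines at 1.5-fold. Filled points among the kinases and adaptors lie left of 0 and those among the other targets right of 0.

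In the upstream arm, ligand genes of the pathway were scarcely expressed. Of the 8 ligand genes in the table, 2 were tested. Tnfsf12, the gene of TWEAK, averaged 5.46, 4.89 and 5.05 CPM at the 3 times (edgeR adjusted p from 0.350 to 0.889 over the 3 comparisons), and Il33, an alarmin gene, averaged 8.92, 10.2 and 8.26 (edgeR adjusted p from 0.0666 to 0.473). A gene on the same strand, Tnfsfm13, covers 48.3% of the exonic bases of Tnfsf12, and how shared reads were counted was not stated. Tnf, which encodes the prototypical activator of the pathway, had at most 1 count in any library, as did Il1a, while Lta and Ltb, ligands of the lymphotoxin system, had at most 9 and 8.

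Of 9 receptor genes tested, 1 was higher and 2 were lower at 12 h, where 13.6% of all tested genes were higher and 11.9% lower, and 1 was higher at 24 h, beside 9.67%. Tnfrsf12a, which encodes the TWEAK receptor Fn14, an activator of the noncanonical branch, was at 78.3, 78.4 and 75.8 CPM at 0 h, 103, 111 and 121 at 12 h, and 105, 112 and 98.1 at 24 h. All later libraries lay above all 0 h libraries, and those at 12 and 24 h overlapped. Tnfrsf12a rose, with log2 fold changes of 0.52 ± 0.056 and 0.44 ± 0.056 (SE) at 12 and 24 h (adjusted p = 6.86e-06 and 3.61e-05 by edgeR). Its fold changes of 1.44 and 1.36 were below 1.5-fold, and it passed at both times under all 15 alternatives. Ltbr, the lymphotoxin beta receptor gene, fell by 0.24 on the log2 scale at 12 h (adjusted p = 0.00335 by edgeR), and at 24 h was at -0.033 against 0 h. Tnfrsf1b, which encodes a TNF receptor, fell by 0.20 at 12 h (adjusted p = 0.0299 by edgeR) and no longer passed when replicate 1 (-0.13) or 3 (-0.21) at 0 h, or else the 12 h replicate 3 (-0.12), was left out.

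Of 23 kinases and adaptors tested, 4 fell at 12 h, Map3k14, Myd88, Sharpin and Birc2, and 1 at 24 h, Birc2. These shares, 17.4% and 4.35%, stood beside 25.5% and 17.4% of all tested genes that passed in either direction, and 11.9% and 7.76% that were lower. The list's median was -0.044 at 12 h and -0.042 at 24 h. Birc2 encodes a ubiquitin ligase that, with its partners, keeps the Map3k14 kinase low and supports TNF receptor signaling. It was at 37.4, 38.0 and 37.8 CPM at 0 h, 31.9, 31.4 and 31.5 at 12 h, and 31.8, 31.7 and 28.9 at 24 h. Every later library was below every 0 h library. Birc2 fell by 0.26 ± 0.051 at 12 h and by 0.29 ± 0.051 at 24 h (log2 fold change, SE, adjusted p = 0.00141 and 0.000617 by edgeR), and passed at both times under all 15 alternatives.

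Map3k14, which encodes the kinase NIK that starts noncanonical processing, was at 18.4, 17.5 and 16.5 CPM at 0 h, 12.9, 14.9 and 14.4 at 12 h, and 14.4, 15.9 and 15.9 at 24 h. Each later library was below all those at 0 h. It fell by 0.31 at 12 h on the log2 scale (adjusted p = 0.00723 by edgeR) and did not pass at 24 h (-0.18, adjusted p = 0.129 by edgeR), and without replicate 1 at 12 h the 12 h value was -0.25 and no longer passed. Myd88, the adaptor of Toll-like and IL-1 receptors, fell by 0.25 at 12 h (adjusted p = 0.0204 by edgeR). Its call was lost without the 0 h replicates 1 (-0.25) or 3 (-0.19) or the 12 h replicate 1 (-0.23), and 11.3% of its exonic bases lie under a gene on the opposite strand.

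Of the other subunit and IkB genes, 1 of 4 passed at 12 h, beside 25.5% of all tested genes (13.6% higher). At 24 h against 0 h the 4 edgeR adjusted p lay between 0.186 and 0.538, where 17.4% of all tested genes passed. Bcl3, an atypical nuclear IkB protein like that of Nfkbiz, was at 27.4, 26.1 and 24.3 CPM at 0 h, 31.4, 32.2 and 33.6 at 12 h, and 28.6, 28.8 and 26.5 at 24 h. The 12 h libraries lay above all the others. Bcl3 rose by 0.32 ± 0.059 at 12 h (log2 fold change, SE, adjusted p = 0.000773 by edgeR), and fell by 0.21 between 12 and 24 h (adjusted p = 0.0455 by edgeR). Rel, the remaining subunit gene, averaged 11.8, 13.2 and 13.0 CPM and did not pass in any comparison (edgeR adjusted p from 0.249 to 0.930).

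Among 10 tested brakes other than the members, 1 was higher and 2 were lower at 12 h, and 1 was higher at 24 h, or 30% and 10% beside 25.5% and 17.4% of all tested genes. Cyld, a deubiquitinase that removes activating chains in the pathway, was at 42.5, 48.7 and 48.3 CPM at 0 h, 47.0, 48.5 and 46.7 at 12 h, and 53.7, 55.5 and 54.4 at 24 h. The 24 h libraries exceeded all the others. Cyld rose by 0.23 ± 0.051 at 24 h against 0 h (log2 fold change, SE, adjusted p = 0.00513 by edgeR), and passed there under all 15 alternatives. Tnip1, whose product binds that of Tnfaip3, fell by 0.23 at 12 h (adjusted p = 0.00414 by edgeR) and stood at -0.036 at 24 h. Rnf11, a further partner of Tnfaip3, rose by 0.16 at 12 h (adjusted p = 0.0409 by edgeR), a value that ranged from 0.10 without replicate 3 at 12 h to 0.22 and no longer passed in 7 of the 9 fits that left out a library, passing still without the 12 h replicate 1 or the 24 h replicate 2.

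Of 22 tested target genes outside the members, 9 rose at 12 h and 8 at 24 h, or 40.9% and 36.4%, beside 13.6% and 9.67% of all tested genes that were higher. All that passed were higher, and the medians were 0.16 and 0.19 beside -0.0028 and -0.0065 over all tested genes. Genes that rose by 1.5-fold or more numbered 5 and 4, while 2.29% and 2.27% of all tested genes changed by that much in either direction. The list was chosen with earlier results of these data known. These shares and medians are therefore a description, and the targets were not tested as a set. Ccl5, a chemokine gene, was at 1.92, 2.16 and 1.54 CPM at 0 h, 1.45, 1.87 and 1.83 at 12 h, and 4.06, 5.92 and 4.97 at 24 h. The 24 h libraries stood well above the rest, and the 0 and 12 h libraries overlapped. Ccl5 rose by 1.41 ± 0.177 at 24 h against 0 h (log2 fold change, SE, adjusted p = 2.79e-05 by edgeR). The neutrophil chemokine genes Cxcl1 and Cxcl2, close paralogs whose reads can be split, had log2 fold changes of 1.31 and 1.73 at 12 h and of 0.74 and 1.00 at 24 h. For Cxcl2 the 24 h value no longer passed under DESeq2, without replicate 1 (0.90) or 3 (0.89) at 0 h, or without replicate 2 (0.75) or 3 (1.10) at 24 h. Several targets in this list answer to other transcription factors as well, and Vcam1, like Icam1 an adhesion gene, was below 1 CPM and did not pass at either time (adjusted p = 0.399 and 0.0626 by edgeR).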

How the data were processed

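RNA-seq was analysed from 9 libraries, 3 at each of 0, 12 and 24 h. The authors trimmed reads with Cutadapt, aligned them to GRCm38 with STAR and counted them with featureCounts, and the authors deposited the raw counts, which were not normalized. Strand setting and treatment of reads matching several genes were not given in the sources used here.

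Counts were filtered with filterByExpr, scaled by TMM and fitted over all 9 libraries in edgeR 4.0.16 (R 4.3.3). Time points were compared by quasi-likelihood F-tests, two-sided, with Benjamini-Hochberg adjustment over 11373 genes. A gene passed at an adjusted p of at most 0.05. CPM are TMM-scaled, and log2 CPM for correlations used a prior count of 2. Intervals are 95%, from the fitted standard error. Lengths, coordinates and overlaps were taken from GENCODE M21, which held 15541 of the 15552 genes. Alternatives were DESeq2 1.42.0, its size factors, total counts, no filter, only the time points compared, a replicate block, and leaving out each library. The procedures were tested on simulated data.

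Replicate numbers were not used as pairs in the main fit. Deviations of same-numbered libraries correlated between -0.0744 and 0.131, and those of differently numbered libraries between -0.125 and 0.120. With 3 libraries per time point, these correlations cannot show whether the libraries were paired. Members and lists were chosen with earlier results of these data known. Besides the members, up to 3 genes that passed at 12 or 24 h against 0 h were named per list, at a mean of at least 1 CPM. Nfkbiz, with the smallest adjusted p, was the member for which 5 similar genes were named. Tnf, Il1a, Lta, Ltb, Tnfsf12, Il33, Rel, Vcam1, Sharpin, Ier3, Csf1 and the overlapping Psd and Sirt2 were named outside that rule after their values were seen. Arrb1 was the example taken from the 5.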

Additional observations from a re-analysis of the deposited data

Results flagged for a closer look

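In 7 of the genes described by name above, the value at 24 h differed from that at 12 h in a direct test. Their changes against 0 h thus differed between the time points. Of all tested genes, 5.03% passed in that comparison. Those of the 7 outside the members had been named for passing at 12 or 24 h against 0 h in these same libraries. That choice favours such a difference, so the 7 are a description and not a share of the pathway. Of the members, Nfkbiz differed, with -0.32 on the log2 scale at 24 h against 12 h (edgeR adjusted p = 0.0128). Of the other pathway genes, the nuclear IkB gene Bcl3 was at -0.21 (edgeR adjusted p = 0.0455) and Cxcl1 at -0.57 (edgeR adjusted p = 0.0101). Cyld at 0.20 (edgeR adjusted p = 0.0314), Tnip1 at 0.20 (edgeR adjusted p = 0.0417), Ltbr at 0.21 (edgeR adjusted p = 0.0344) and Ccl5 at 1.55 (edgeR adjusted p = 0.000182) were higher at 24 h. Only Ccl5 passed in all 9 fits that left out a library. Bcl3 passed in 2 of the 9, Tnip1 in 3, Ltbr in 3, Cyld in 5, Nfkbiz in 6 and Cxcl1 in 7. Ier3 (-0.57, edgeR adjusted p = 0.000402) and Csf1 (0.38, edgeR adjusted p = 0.0167), target genes outside the naming rule, were the other pathway genes that passed between 12 and 24 h. Groups of 3 libraries are too small for a test of single outlying libraries.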

How the results depend on the processing

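The number of members that passed was 0, 1 and 1 at 12 h against 0 h, 24 h against 0 h and 24 h against 12 h. Without the filter on low counts it was 2, 2 and 2. At 24 h against 0 h it was 2 with only those time points and 2 with the replicate block, which also put 1 member, Birc3, past 1.5-fold. The filter had kept Birc3 only through its 24 h values. DESeq2 passed 2 at 24 h against 12 h. Leaving out 1 library gave 0 to 1, 0 to 2 and 0 to 3 members, 0 to 1 past 1.5-fold at 24 h against 0 h, and 1 to 3 for any difference among the 3 times (2 with all libraries). The cause was not tested. The block changed no other member's call, and 4 of 9 libraries correlated best with their own replicate number.

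Directions that turned were of values that did not pass. Tnfaip3 at 24 h against 12 h was 0.0056 with total counts, against -0.0084. Over fits that left out 1 library, Nfkb2 (-0.071 to 0.059), Relb (-0.17 to 0.24), Nfkbia (-0.048 to 0.020), Icam1 (-0.33 to 0.16) and Cyld (-0.032 to 0.066) turned at 12 h against 0 h. At 24 h against 0 h, Nfkb1 (-0.032 to 0.018), Nfkbib (-0.16 to 0.0086), Icam1 (-0.12 to 0.087), Tnip1 (-0.068 to 0.028) and Ltbr (-0.079 to 0.025) turned. At 24 h against 12 h these were Tnfaip3 (-0.022 to 0.012), Icam1 (-0.21 to 0.29), Birc2 (-0.062 to 0.013) and Rnf11 (-0.074 to 0.051).

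Alternatives for the other pathway genes and for all genes were chosen after seeing the data. Of all genes, 572 passed at 24 h against 12 h, 950 without the filter and 214 to 879 with 1 library left out, the lowest without replicate 1 at 12 h and the highest without replicate 3 at 12 h. Of the 70 pathway genes, 8 passed there, and 2 to 8 with 1 library left out. Birc3 at 12 h against 0 h was filtered out with only those time points. Depth limits Birc3, at 4 to 19 counts per library.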
